A study of Mus musculus with 24 samples.

Results

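Macrophages without the receptor GPR35 were exposed to lysophosphatidic acid (LPA), and the 4 libraries of treated cells were compared with the 4 of untreated cells of the same genotype. These 8 libraries were chosen by their labels from the 24 of the study. The cells were bone marrow-derived macrophages from male C57BL/6 mice, grown with M-CSF, either wild type (WT) or Gpr35-deficient (KO), and on day 7 they received 10 µM LPA for 4 h, 10 ng/mL lipopolysaccharide (LPS) for 4 h, or nothing. Each of the 6 combinations has 4 replicates. How Gpr35 was inactivated, whether in the whole animal, and how old the mice were, is not stated in the labels used here. Nor do the labels say whether the replicates of a group came from separate animals or cultures, so p-values measure only the spread between these samples.

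LPA is a bioactive phospholipid that acts on cells through G protein-coupled receptors, chiefly the LPA receptors encoded by the Lpar genes, which couple to several G protein classes and reach calcium and cAMP signalling. GPR35 is a further G protein-coupled receptor of myeloid and intestinal cells for which LPA species are among the proposed ligands. The question of the comparison is what LPA still does to macrophage transcripts when Gpr35 is missing.

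Gpr35 (Entrez gene 64095, chromosome 1, 92948052 to 92986391, GRCm38.p6) had 4, 1, 2 and 5 counts in untreated libraries 1 to 4 of the Gpr35-deficient cells and 4, 0, 3 and 2 counts in the LPA libraries. That is 0.133 ± 0.0710 CPM (counts scaled to library size and to one common total; mean ± SD, n = 4) and 0.110 ± 0.0844 CPM, against 2.60 ± 0.214 CPM in untreated wild-type cells, so the labels hold. The 8 libraries held 15557011 to 21461866 counts, and the wild-type libraries of the same treatments held 31985119 to 46697165. By the run names in the labels the wild-type libraries were read on 2 flow cell lanes and the deficient ones on 1, so lane and depth go with genotype but not with LPA. The macrophage identity genes added up to 59385.6 to 64962.8 CPM in the 8 libraries, and none of the 29 was called with edgeR. Of these 29, 7 had an unadjusted p below 0.05, as did 1472 of all 11590 genes, and DESeq2 called 2.

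In the fit used here, LPA changed few transcripts in Gpr35-deficient macrophages, and most of them by little. Fits with the replicate number as a block called more genes, and more still when only the compared groups entered. Their counts are given below and in the section on processing, so how few genes changed depends on the fit. Of 11590 genes tested with edgeR's quasi-likelihood test, 304 (2.62%) passed a Benjamini-Hochberg adjusted p below 0.05 and are called changed here: 181 rose (1.56% of genes) and 123 fell (1.06%). Without the adjustment, 1472 of the 11590 had a p below 0.05, the count to set beside the unadjusted counts of the lists below. The median size of a called log2 change was 0.40. Only 26 reached 2-fold, 20 of them upward, while 83 reached 1.5-fold. The groups did not overlap in 272 of the 304, against 8.84% of all genes (4.65% with LPA higher and 4.18% with LPA lower). The plot of level against change shows the rises reaching further from 0 than the falls. The largest rises of genes above 2 CPM were those of Olfml3, Thbs1, Pald1, Ctla2a, Cxcl14 and Tgm2. The largest falls were in the chemokine Cxcl10, in the deacetylase Hdac9 and in a few transcripts below 2 CPM, among them the chemokine Ccl8.

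The replicate numbers were taken to pair the libraries, which the labels do not state. A fit with the number as a block called 554 genes (4.78%), 307 of them higher (2.65%) and 247 lower (2.13%). It kept 300 of the 304. A single library also mattered: without LPA library 3 the count was 168, without untreated library 4 it was 184, and without untreated library 3 it was 190. Across the 8 fits that each left out 1 library, 136 of the 304 were called every time.

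The strongest rise of a gene above 2 CPM was that of Olfml3, which encodes a secreted olfactomedin-like matrix protein (Entrez gene 99543, chromosome 3, 103735394 to 103738001). It stood at 4.28, 6.77, 3.27 and 4.26 CPM in untreated libraries 1 to 4 and at 18.4, 23.9, 23.5 and 21.6 CPM in LPA libraries 1 to 4. All treated libraries were far above all untreated ones, a 4.73-fold rise (log2 change 2.24 ± 0.23 SE, edgeR adjusted p = 1.0e-05). The rise in wild-type cells was smaller, at 1.19 ± 0.21 on the log2 scale, and the 2 effects differed by 1.06 ± 0.31 (adjusted p = 0.015). With LPS the deficient cells had 2.54 ± 0.543 CPM of Olfml3 (n = 4), a level given without a test.

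Promoter sequence is shown for the leading rise and for 2 of the falls described further on, because the motifs of the inflammatory regulators lie in the latter. Each is the 250 bases before the start in the RefSeq promoter table of GRCm38.p6, read 5′ to 3′ on the gene's strand, with motif matches in capitals. They lie at chr3:103738002-103738251 (minus strand) for Olfml3, chr5:92348890-92349139 (minus strand) for Cxcl10 and chr3:142530086-142530335 (plus strand) for Gbp7.
Olfml3: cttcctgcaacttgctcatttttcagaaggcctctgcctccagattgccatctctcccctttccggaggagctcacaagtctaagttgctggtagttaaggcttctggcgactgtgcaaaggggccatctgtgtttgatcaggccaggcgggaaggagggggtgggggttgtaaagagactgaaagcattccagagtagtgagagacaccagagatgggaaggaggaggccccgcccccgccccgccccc
Cxcl10: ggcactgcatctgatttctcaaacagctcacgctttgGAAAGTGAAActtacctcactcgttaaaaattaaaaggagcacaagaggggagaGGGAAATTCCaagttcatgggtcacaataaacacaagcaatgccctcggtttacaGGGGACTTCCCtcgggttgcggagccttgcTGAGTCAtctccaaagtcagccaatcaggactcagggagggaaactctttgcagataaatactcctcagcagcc
Gbp7: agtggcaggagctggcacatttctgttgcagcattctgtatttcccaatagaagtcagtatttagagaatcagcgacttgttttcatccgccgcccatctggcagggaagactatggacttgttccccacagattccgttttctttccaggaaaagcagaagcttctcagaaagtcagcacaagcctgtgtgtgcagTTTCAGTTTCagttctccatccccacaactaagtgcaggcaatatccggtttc

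The search covered both strands for the AP-1 site (TGANTCA), the cAMP response element (TGACGTCA), the SMAD box (CAGAC), the hypoxia response core (ACGTG), and by name the interferon-stimulated response element, the NF-kB site, the serum response CArG box and the ER stress element. In the Cxcl10 window, counted from the base before the start as -1, the capitals mark an interferon-stimulated response element at -213 to -204, NF-kB sites at -159 to -150 and, overlapping each other, at -104 to -94, and an AP-1 site at -74 to -68. The Gbp7 window held an interferon-stimulated response element on the other strand at -53 to -44, and the Olfml3 window held none of the 8 motifs. Of 32851 promoters in the table, 2.98% held the interferon element, 7.25% the NF-kB site, 6.75% the AP-1 site and 42.2% the SMAD box. A match describes letters only. The table had a promoter for 240 of the 304 called genes (78.9%). Motif shares over the called genes were not compared, so the windows printed here do not tell how common a motif is among them.

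TGF-beta signalling runs from latent ligands, which integrins such as alpha V can activate, through a pair of receptor kinases to SMAD proteins, which are held in check by inhibitory SMADs and by the co-repressors SKI, SnoN and TGIF1. Of 30 measured genes of this pathway, 7 rose and none fell, where 1.56% of all genes rose and 1.06% fell. This list, like the others here, was chosen with earlier results of these data known, and its count was not tested against those shares. The median log2 change of the 30 was 0.18, against -0.01 over all genes. Without the adjustment, 13 of the 30 had a p below 0.05, as did 1472 of all 11590 genes. The 7 became 4 without untreated library 4 or LPA library 3. The 7 were the integrin Itgav, the receptor Tgfbr1, the feedback and co-repressor genes Skil, Ski, Tgif1 and Smad6, and the target gene Tgm2. The plot of pathway genes by replicate number shows these 7 above 0 in each of the 4 pairs. So were all 181 genes called as rises, and 31.4% of all genes had the same sign in the 4 pairs. The agreement follows from the call and adds no support.

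**Figure D1:**
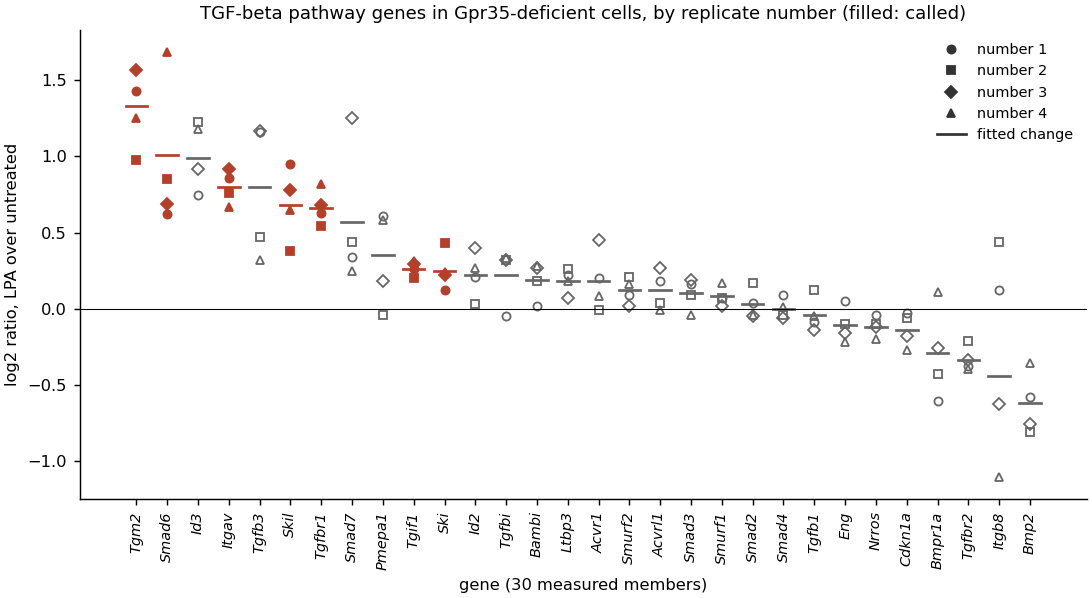
Log2 ratio of LPA over untreated for the measured TGF-beta pathway genes in Gpr35-deficient cells, 1 symbol per replicate number (log CPM with a prior count of 2), with the fitted change as a line. Red filled symbols are the 7 genes that passed the test, all above 0 in each pair, as were all 181 called rises. Grey open symbols are the others.

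Itgav, the alpha V chain of integrins that bind vitronectin and release TGF-beta from its latent form, had 1 of the smallest p-values of any gene. It moved from 97.6 ± 8.45 CPM (SD, n = 4; lowest 86.0, highest 106.1) to 181.0, 166.0, 162.6 and 169.3 CPM. The 4 treated libraries lay close together and well above the untreated ones (log2 change 0.80 ± 0.08 SE, edgeR adjusted p = 6.3e-06). In wild-type cells it rose by 0.62 ± 0.08, and the effects were not called different (adjusted p = 0.25).

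Skil, which encodes the SMAD co-repressor SnoN and is itself a TGF-beta target, went from 73.7, 100.1, 81.2 and 83.4 CPM to 142.4, 130.2, 139.5 and 130.9 CPM, again without overlap (0.68 ± 0.08, adjusted p = 2.4e-05). Its wild-type change of 0.82 was not called different (adjusted p = 0.34). Tgfbr1, the type I receptor kinase, rose from 152.0, 190.6, 165.5 and 136.7 CPM to 234.7, 277.5, 265.6 and 241.3 CPM (0.66 ± 0.10, adjusted p = 4.9e-04). That rise exceeded the wild-type one of 0.27 by 0.39 (adjusted p = 0.047).

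Tgm2, the tissue transglutaminase that crosslinks matrix proteins, rose 2.52-fold, and its pairs moved together. Untreated libraries 1 to 4 had 73.1, 50.4, 58.9 and 76.1 CPM and LPA libraries 1 to 4 had 197.0, 99.3, 174.8 and 181.1 CPM. Library 2 was lowest in both groups. The wild-type change, 1.86, was not called different from the deficient one of 1.33 (adjusted p = 0.17). Among the weaker members, Ski rose by 0.25 where wild-type cells lowered it by 0.34, and that difference passed (0.60, adjusted p = 5.9e-05). Smad6 (1.01, adjusted p = 0.042), Tgif1 (0.26) and Ski, named here after their values were seen, were not called without untreated library 4 (adjusted p = 0.17 for Smad6, which lost the call in 6 of the 8 fits, and 0.079 for Tgif1), nor without LPA library 3. Ski was not called either without untreated library 2 (adjusted p = 0.071) or LPA library 2.

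The ligand genes of the pathway were not called. Tgfb1 stood at 229.2, 227.9, 261.6 and 231.8 CPM untreated and at 215.4, 248.1, 237.1 and 223.4 CPM with LPA, so the groups overlapped. The inhibitor of differentiation Id3 (0.99, adjusted p = 0.073) and the inhibitory SMAD Smad7 (0.57, adjusted p = 0.12) did not pass. With the replicate block 2 members also fell, Tgfbr2 by 0.34 (adjusted p = 0.015) and Bmp2 by 0.62 (adjusted p = 0.038). In wild-type cells 15 members rose and 4 fell, where 44.6% of all genes were called. The effects of the 2 genotypes differed in 6 of the 30, 3 of them with the deficient cells higher, and 28.5% of all genes passed that test.

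Genes of the extracellular matrix and of proteases and their inhibitors made up another group of rises: 7 of 51 measured members rose and none fell (median 0.09). Over all genes 1.56% rose and 1.06% fell. The group's count of rises was 3 without untreated library 3, when Thbs1, Adam8, Col4a2 and Ctsl were not called, and 4 without LPA library 1. Beside Olfml3 and Tgm2, which it shares with the lists above, the group holds Thbs1 and Mmp19. Thrombospondin 1, the product of Thbs1 (chromosome 2, 118111876 to 118127133), is a matrix glycoprotein that can release TGF-beta from its latent form and restrains vessel growth. Its level spread widely between replicates, from 540.7, 149.8, 239.1 and 436.5 CPM untreated to 1604.2, 501.8, 1042.2 and 1223.7 CPM with LPA.

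Treated library 2 lay below untreated library 1, so the groups overlapped. In each pair the treated library was higher, as for all 181 called rises. The change of Thbs1 was 1.68 ± 0.37 (adjusted p = 0.014). With the replicate block the adjusted p was 0.0011, and without untreated library 3 or LPA library 1 the gene was not called (highest adjusted p = 0.062). In wild-type cells the change was 0.22 (adjusted p = 0.64), and the difference between genotypes was 1.45 (adjusted p = 0.04). Mmp19, a matrix metalloproteinase, rose from 55.1 to 60.8 CPM over the untreated libraries to 75.9 to 83.2 CPM (0.46 ± 0.08, adjusted p = 0.0024), with a wild-type change of -0.07 and a difference of 0.54 (adjusted p = 0.0025).

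Markers of fibroblasts and stroma were near the floor of the data: 5 of 18 were in the table and none was called with edgeR (3 had an unadjusted p below 0.05, and DESeq2 called 1). Their sum was 3.88 to 5.62 CPM in untreated libraries and 6.39 to 14.5 CPM with LPA, highest in LPA library 3, where the collagen genes Col1a1 and Col1a2 stood at 3.84 and 4.33 CPM. Of the genes called here, Col4a2 (2.43 CPM) and Pald1 (26.4 CPM) also had their highest treated value in that library, and Olfml3, Tgm2, Thbs1 and Mmp19 had theirs in LPA library 1 or 2. By log2 ratio of same-numbered libraries, number 3 was highest for Col1a2 (3.14), Olfml3 (2.82), Thbs1 (2.12), Pald1 (1.89), Tgm2 (1.57) and Col4a2 (1.23). For Mmp19 number 4 was highest (0.57). The part of such cells in the results was not tested. In bulk RNA, fewer cells of a type and less RNA per cell cannot be told apart.

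**Figure D2:**
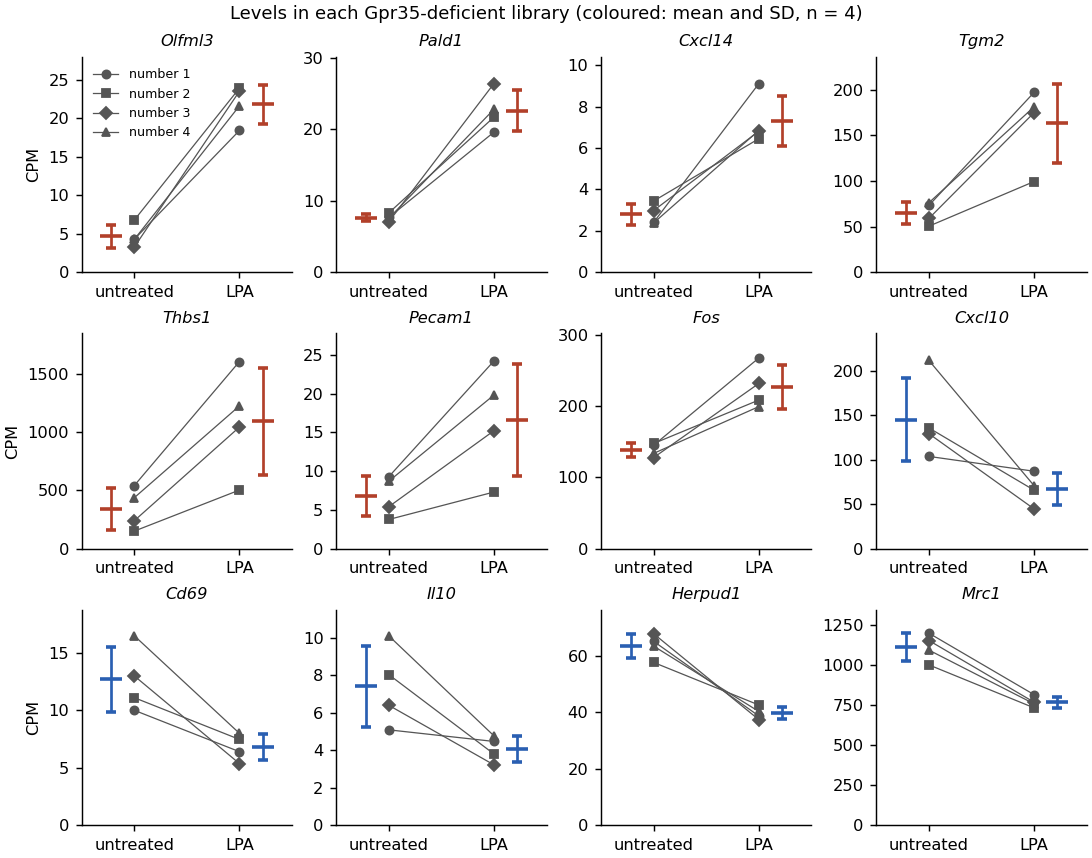
Levels (CPM) of 12 named genes in each of the 8 Gpr35-deficient libraries, linked by replicate number, with the group mean and SD beside them (n = 4). Olfml3, Pald1, Cxcl14 and Tgm2 separate without overlap. Thbs1 and Pecam1 overlap between groups and rise in every pair, as all 181 called rises do. Cxcl10, Cd69 and Il10 were highest in untreated library 4.

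Among angiogenic factors and guidance receptors, 5 of 26 measured members rose and 2 fell, where 1.56% of all genes rose and 1.06% fell. Without untreated library 3, Jag1 and Pecam1 were not called and 3 rose. Pald1 encodes paladin, a phosphatase domain protein known from endothelial cells. It rose 2.96-fold, from 7.66, 8.30, 7.06 and 7.54 CPM to 19.6, 21.7, 26.4 and 22.8 CPM, and the spread within each group was small beside the gap (1.57 ± 0.20, adjusted p = 9.8e-05). Its wild-type rise was 0.53, smaller by 1.04 (adjusted p = 0.0084).

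Vegfa, the vascular growth factor, went from 83.8, 42.7, 59.7 and 79.1 CPM to 195.6, 89.6, 152.3 and 126.2 CPM (1.08 ± 0.20, adjusted p = 0.0036). Library 2 was the lowest of each group, as for Thbs1, Tgm2 and Pecam1. Notch1, the Notch receptor, rose from 89.7, 67.5, 86.4 and 85.6 CPM to 121.6, 122.1, 138.7 and 137.9 CPM (0.66 ± 0.10, adjusted p = 2.7e-04). In wild-type cells its change was 0.00, and the 2 effects differed by 0.66 (adjusted p = 0.0014).

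Pecam1, the adhesion molecule CD31, was at 9.27, 3.75, 5.40 and 8.69 CPM untreated and 24.2, 7.29, 15.2 and 19.8 CPM with LPA. Here the groups overlapped and every pair rose, as for all 181 called rises (1.29 ± 0.31, adjusted p = 0.027, and 1.1e-05 with the replicate block). The call of Pecam1 was lost in 5 of the 8 fits that left out a library, with the highest adjusted p, 0.11, without LPA library 1. Of the 14 endothelial markers 6 were in the table, and their sum was 157.7 to 177.7 CPM untreated and 149.9 to 168.9 CPM with LPA. Pecam1 averaged 6.78 CPM of it untreated and 16.6 CPM with LPA, so the sum mostly reflects the other members. The part of endothelial cells in the rise was not tested.

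The 2 falls were Sema6d and Kdr. Sema6d, a transmembrane semaphorin, fell from 13.1, 10.2, 12.7 and 14.9 CPM to 8.27, 6.50, 5.94 and 7.47 CPM (-0.86 ± 0.14, adjusted p = 0.001), with no overlap. Kdr, the VEGF receptor, fell by 0.72 (adjusted p = 0.041) in a group where untreated library 4, at 14.6 CPM, stood above the others, at 8.06 to 8.95 CPM; without it the change was -0.47 (adjusted p = 0.2). Wild-type cells raised Kdr by 1.12, and the difference of -1.85 passed (adjusted p = 3.3e-05).

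Receptors of adhesion and migration gave 4 rises and no fall among 39, where 1.56% of all genes rose. There were 2 rises without untreated library 3, when Cd44 (adjusted p = 0.05) and Itgb5 were not called. Beside Itgav and Cd44 the 4 were S1pr1, a sphingosine 1-phosphate receptor, and the integrin Itgb5, a partner of alpha V. S1pr1 was at 83.0, 65.5, 70.2 and 70.1 CPM untreated and at 102.9, 92.4, 104.3 and 103.4 CPM with LPA (0.48 ± 0.09, adjusted p = 0.0029). Wild-type cells had a change of 0.01, which differed from that rise by 0.47 (adjusted p = 0.0084). Itgb5 rose by 0.34 (adjusted p = 0.017) and fell by 0.61 in wild-type cells (difference 0.94, adjusted p = 7.6e-06), but the rise was not called without untreated library 3 or 4 or LPA library 4 (highest adjusted p = 0.072, without untreated library 3).

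The LPA receptor and handling genes themselves were not called: 0 of 22 passed with edgeR, 5 had an unadjusted p below 0.05, and DESeq2 called 1. With the replicate block 2 passed, as did 4.78% of all genes. Lpar6, the most abundant of the receptors named here, stood at 150.0, 108.0, 112.7 and 135.0 CPM untreated and at 197.8, 150.0, 170.4 and 165.2 CPM with LPA (0.43 ± 0.16, adjusted p = 0.18, and 0.022 with the block). Lpar5 was at 24.8 to 29.9 CPM untreated and 23.4 to 24.8 CPM with LPA, and Lpar2 at 2.06 to 2.99 and 2.21 to 3.09 CPM. Lpar1 went from 4.05, 3.91, 5.87 and 4.80 CPM to 3.07, 2.21, 2.24 and 3.38 CPM (-0.77 ± 0.24, adjusted p = 0.11), where wild-type cells raised it by 1.23. The effects on Lpar1 differed by -2.0 ± 0.30 (adjusted p = 1.2e-04). Receptor transcripts were therefore still measured in the deficient cells, with levels that a transcript count gives and no measure of receptor protein.

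Among signalling genes downstream of G proteins, 1 of 49 rose and 1 fell, where 1.56% of all genes rose and 1.06% fell. With the replicate block 5 rose and 2 fell, against 2.65% and 2.13% of all genes. The rise, of the adenylate cyclase Adcy7, was lost in 6 of the 8 fits that left out a library (highest adjusted p = 0.16, without LPA library 2). Rgs18, a regulator that speeds up the shut-off of G proteins, fell from 25.4, 25.5, 21.9 and 24.2 CPM to 15.6, 16.2, 14.5 and 15.3 CPM (-0.66 ± 0.08, adjusted p = 5.5e-05). The 4 treated libraries differed by under 2 CPM. Its wild-type fall of 0.45 was not called different (adjusted p = 0.17). The phosphodiesterase Pde3b, which breaks down cAMP, had a change of 0.79 that passed only with the block (adjusted p = 0.001).

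Immediate-early genes gave 2 rises of 28, and 6 with the block, where 1.56% and 2.65% of all genes rose. Fos, the AP-1 subunit, moved from 145.1, 147.6, 127.8 and 133.7 CPM to 267.7, 208.6, 231.9 and 199.4 CPM without overlap (0.71 ± 0.11, adjusted p = 3.4e-04). Wild-type cells gave 0.75 ± 0.10, and the difference was -0.04 ± 0.15 (adjusted p = 0.88). Nr4a2, an orphan nuclear receptor, rose by 1.20 (adjusted p = 0.026) but was not called in 6 of the 8 fits that left out a library, and its highest adjusted p was 0.14 without LPA library 1. Fosl2 (0.82), Nr4a1 (0.68), Dusp5 (1.01) and Klf10 (0.34) passed only with the block. Of the SRF, MRTF and YAP target genes 2 of 21 rose, where 1.56% of all genes rose. They were Thbs1 and the non-muscle myosin Myh9 (0.35 ± 0.06, adjusted p = 0.0012, against 0.43 in wild type).

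In the deficient cells the NF-kB and interferon lists held a few falls and no rise, the chemokines split, and no pro-inflammatory cytokine passed. Among NF-kB subunits, feedback and target genes 3 of 32 fell, against 1.06% of all genes, and none rose. Wild-type cells gave 28 rises, where 23.5% of all genes rose. The effect was lower in the deficient cells in 24 of the 32, all that passed the test of the difference, against 15.8% of all genes. Nfkbiz, an atypical IkB protein, fell from 55.2, 56.0, 61.7 and 67.2 CPM to 42.5, 41.6, 37.8 and 40.3 CPM (-0.57 ± 0.09, adjusted p = 5.9e-04). Its wild-type change was 0.61, and the difference was -1.18 ± 0.12 (adjusted p = 4.9e-06).

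Cd40, the co-stimulatory receptor, was at 31.2, 38.7, 40.9 and 53.1 CPM untreated and at 26.9, 20.9, 25.3 and 27.4 CPM with LPA, with no overlap (-0.70 ± 0.15, adjusted p = 0.0094). Wild-type cells raised it by 0.94. Tlr1, a Toll-like receptor for bacterial lipopeptides, fell from 86.6, 111.4, 96.9 and 102.2 CPM to 70.2, 80.5, 69.2 and 77.4 CPM (-0.42 ± 0.09, adjusted p = 0.0098), and rose by 0.53 in wild type. Ikbke, a kinase of the same pathway, fell by 0.27 (adjusted p = 0.035) but lost the call in 5 of the 8 fits, with the highest adjusted p, 0.14, without untreated library 4. For Cd40, Nfkbiz and Ikbke the highest untreated value was that of library 4.

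Interferon-stimulated genes were lower with LPA as far as their log2 changes go, but few passed. All 46 measured members had a change below 0, from -0.81 to -0.02 (median -0.29). Of them 22 had an unadjusted p below 0.05, as did 1472 of all 11590 genes. After adjustment 2 fell, Gbp5 and Gbp7, and 4 did with the replicate block, where 1.06% and 2.13% of all genes fell. Without untreated library 1 there were 13 falls, and without untreated library 4 or LPA library 3 there were 0. Wild-type cells raised 40 of the 46 (23.5% of all genes rose there), and all 42 that differed between the genotypes were lower in the deficient cells, as were 15.8% of all genes. The summed level was 7288.6, 11384.1, 8337.3 and 12691.4 CPM in untreated libraries 1 to 4 and 9121.1, 8305.4, 6731.2 and 7936.7 CPM in the LPA libraries, so it was lower with LPA in 3 of 4 pairs and higher in the pair with number 1. Gbp7, a guanylate-binding protein of interferon responses, was at 106.3, 115.3, 126.6 and 162.6 CPM and then at 105.9, 70.6, 66.1 and 83.9 CPM. Its fall (-0.65 ± 0.14, adjusted p = 0.011) was not called without untreated library 4 (adjusted p = 0.058) or LPA library 3. Gbp5 (-0.81, adjusted p = 0.043) was not called in 5 of the 8 fits, with the highest adjusted p, 0.2, without untreated library 4. Reads shared between the near-identical Gbp genes may be split by the counting.

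Chemokines gave 2 rises and 2 falls among 22, where 1.56% of all genes rose and 1.06% fell. There was 1 fall without untreated library 4 or LPA library 3, and there were 3 without untreated library 1. Cxcl10, the interferon-induced ligand of CXCR3 whose promoter is printed above, had 103.8, 135.9, 129.4 and 211.9 CPM untreated and 87.1, 65.8, 44.7 and 70.9 CPM with LPA. The groups did not overlap, and the fall was 2.16-fold (-1.11 ± 0.21, adjusted p = 0.0047); without untreated library 4 it was -0.87 (adjusted p = 0.026). Wild-type cells went the opposite way by 0.92, and the effects differed by -2.04 ± 0.30 (adjusted p = 1.1e-04). Cxcl14, a homeostatic chemokine, rose from 2.41, 3.44, 2.98 and 2.38 CPM to 9.11, 6.45, 6.81 and 6.85 CPM (1.39 ± 0.19, adjusted p = 1.4e-04), more than in wild type (0.46, difference 0.93, adjusted p = 0.012). Cxcl16, a scavenging chemokine of the cell surface, rose by 0.32 (adjusted p = 0.0018), and by 0.54 in wild type. Ccl8, a rare monocyte chemokine below 2 CPM, fell by 1.85 (adjusted p = 0.023) and was not called without untreated library 4 (adjusted p = 0.14), LPA library 3 or LPA library 4. None of the 17 pro-inflammatory cytokine genes passed with edgeR or DESeq2, and 2 had an unadjusted p below 0.05, as did 1472 of all 11590 genes. Tnf was at 26.0, 49.1, 44.8 and 42.4 CPM and at 28.1, 34.9, 25.2 and 29.3 CPM (-0.47, adjusted p = 0.42).

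**Figure D3:**
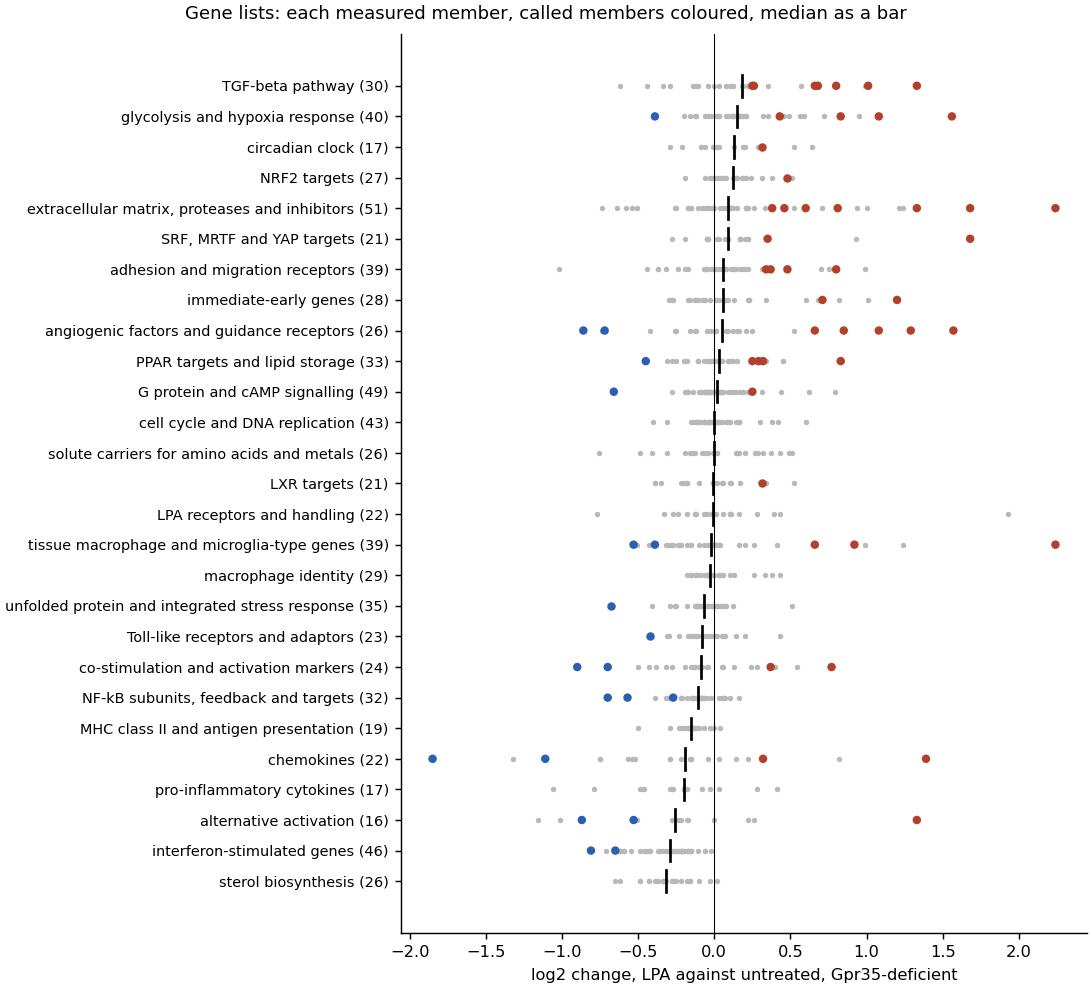
Log2 change with LPA in Gpr35-deficient cells for each measured member of 27 gene lists (number of members in parentheses), with members that rose in red, those that fell in blue, the others in grey and the list median as a black bar. The TGF-beta list has the highest median, 0.18, and sterol biosynthesis the lowest, -0.32; neither was tested as a list.

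Activation markers of the cell surface split. Havcr2, the checkpoint receptor TIM-3, rose from 18.2, 14.9, 14.9 and 15.9 CPM to 27.6, 25.2, 29.2 and 26.6 CPM (0.77 ± 0.12, adjusted p = 4.9e-04), and it did not pass in wild type (0.10, difference 0.67, adjusted p = 0.0055). Cd69, an early activation antigen that restrains S1PR1 at the cell surface, fell from 12.7 ± 2.85 CPM (SD, n = 4; lowest 10.0, highest 16.5) to 6.39, 7.46, 5.35 and 7.99 CPM (-0.90 ± 0.17, adjusted p = 0.0028). Wild-type cells raised Cd69 by 1.19.

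Genes linked to alternative activation or to tissue macrophages moved both ways. Of 16 alternative activation genes Tgm2 rose and Mrc1 and Il10 fell, and of 39 tissue macrophage genes Olfml3, Tgfbr1 and Tmem119 rose and Mrc1 and Gas7 fell. Over all genes 1.56% rose and 1.06% fell. Tmem119, a microglial membrane protein, rose by 0.92 (adjusted p = 0.016), from 1.34, 1.11, 1.14 and 1.15 CPM to 1.73, 1.58, 2.38 and 3.23 CPM, and lost the call in 4 of the 8 fits that left out a library. Mrc1, the mannose receptor CD206, fell from 1197.7, 999.5, 1151.7 and 1091.9 CPM to 813.8, 731.4, 766.7 and 756.6 CPM (-0.53 ± 0.08, adjusted p = 4.9e-04). The wild-type fall of 0.88 was larger, with a difference of 0.35 (adjusted p = 0.031). Il10, the anti-inflammatory cytokine, fell by 0.87 (adjusted p = 0.011), from 5.08 to 10.1 CPM over the untreated libraries to 3.21 to 4.76 CPM with LPA; without untreated library 4 (adjusted p = 0.064) or LPA library 3 it was not called. Gas7, a cytoskeletal adaptor of resident macrophages, fell by 0.39 (adjusted p = 0.0039) with a wild-type change of 0.12 (difference -0.51, adjusted p = 0.0016). The lectins Clec10a (-1.16) and Mgl2 (-1.01) passed only with the block (adjusted p = 0.002 and 0.004). With it 4 of the 16 alternative activation genes fell, against 2.13% of all genes.

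In glycolysis and the hypoxia response 4 of 40 genes rose and 1 fell (median 0.15), where 1.56% of all genes rose and 1.06% fell. With the block 7 rose, against 2.65% of all genes. Wild-type cells gave 26 rises, where 23.5% of all genes rose. The 4 rises in the deficient cells were Hk2, Vegfa, Egln3 and Slc16a3. The last 2 lost the call without any 1 of untreated libraries 2, 3 and 4 or LPA libraries 1, 3 and 4, which left 2 rises. The fall of Ndrg1 lost it in 4 of the 8 fits. Hk2, a hexokinase, went from 38.5, 45.7, 38.9 and 43.8 CPM to 55.4, 53.3, 57.4 and 59.4 CPM (0.43 ± 0.08, adjusted p = 0.0026), which was less than the wild-type rise of 0.80 by 0.36 (adjusted p = 0.018). In PPAR targets and lipid storage 4 of 33 rose and 1 fell, where 1.56% of all genes rose and 1.06% fell. The 4, Angptl4, Ucp2, Slc25a20 and Cpt1a, became 0 without untreated library 3 or LPA library 1, 1 without untreated library 4, and 2 without LPA library 2 or 4. Angptl4, a secreted inhibitor of lipoprotein lipase, went from 23.3, 13.6, 13.8 and 12.7 CPM to 34.1, 24.9, 28.3 and 25.6 CPM (0.83 ± 0.19, adjusted p = 0.014). The rise of Angptl4 was not called without untreated library 3, untreated library 4 (adjusted p = 0.066) or LPA library 1; wild-type cells lowered it by 0.64, and the difference was 1.47 (adjusted p = 5.3e-04). Lpl, the lipase itself, fell from 3827.2, 4671.6, 4031.3 and 4489.6 CPM to 3158.7, 3393.6, 2889.1 and 2995.4 CPM (-0.45 ± 0.10, adjusted p = 0.011, and 0.053 without LPA library 3).

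Among 35 genes of the unfolded protein response and the integrated stress response 1 changed, where 2.62% of all genes did. Herpud1, a component of ER-associated degradation, fell from 65.2, 57.7, 67.9 and 63.5 CPM to 38.7, 42.6, 37.4 and 40.3 CPM (-0.68 ± 0.08, adjusted p = 2.6e-05). Wild-type cells gave 0.13, and there 22 of the 35 genes rose, as did 23.5% of all genes. None of the 26 sterol biosynthesis genes passed with edgeR or DESeq2, 4 had an unadjusted p below 0.05, and the median was -0.32; wild-type cells raised 19 of them (23.5% of all genes), and 18 differed between genotypes, all lower in the deficient cells (15.8% of all genes). Fdps, a prenyl pyrophosphate synthase, was at 16.3, 29.4, 24.1 and 24.9 CPM and at 12.8, 16.2, 14.9 and 17.6 CPM (-0.62, adjusted p = 0.25). No cell cycle gene was called among 43 with edgeR or DESeq2, and 3 had an unadjusted p below 0.05. Over all genes 1472 of 11590 had an unadjusted p below 0.05.

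The 304 genes divide by what LPA did in wild-type cells, a comparison that shares no library with this one. Wild-type cells called 5165 genes (44.6%), and after thinning every library to the smallest total the counts were 4449 there and 286 in the deficient cells. Lane and genotype cannot be told apart. Of the 304, 110 passed in both genotypes in the same direction, 49 in opposite directions and 145 only in the deficient cells by the threshold. The 159 shared calls are 52.3% of the deficient list and 3.08% of the wild-type list. The test of the difference separated 179 genes from 125 whose effects were not called different. Over all genes 28.5% passed that test. It uses the same deficient libraries that picked the 304, so the selection itself favours a difference, also in the counts that follow. Of the 110 same-direction genes 88 were not called different, 16 had the smaller effect in the deficient cells and 6 the larger.

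Of the 145 that passed in the deficient cells alone, 108 did differ from wild type and 37 did not pass that test. Among these 108, Arhgap24, Notch1, Xylt1 and Sipa1l2 were higher and Chst7, Herpud1 and Ptger4 lower. Arhgap24 rose from 2.81, 2.11, 2.27 and 2.95 CPM to 5.93 ± 1.02 CPM (SD, n = 4; highest 6.94), without overlap (1.22 ± 0.18, adjusted p = 2.4e-04), and the difference from wild type was 1.62 (adjusted p = 9.9e-05). Sipa1l2, a protein with a Rap GTPase-activating domain, was among the smallest p-values (0.71 ± 0.07, adjusted p = 6.3e-06) at 29.7 to 33.3 CPM untreated and 47.5 to 55.9 CPM with LPA. Its wild-type change was -0.04. The 49 genes of opposite direction, 32 of them falls in the deficient cells, include Cxcl10, Cd69, Cd40, Nfkbiz, Tlr1 and Kdr.

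**Figure D4:**
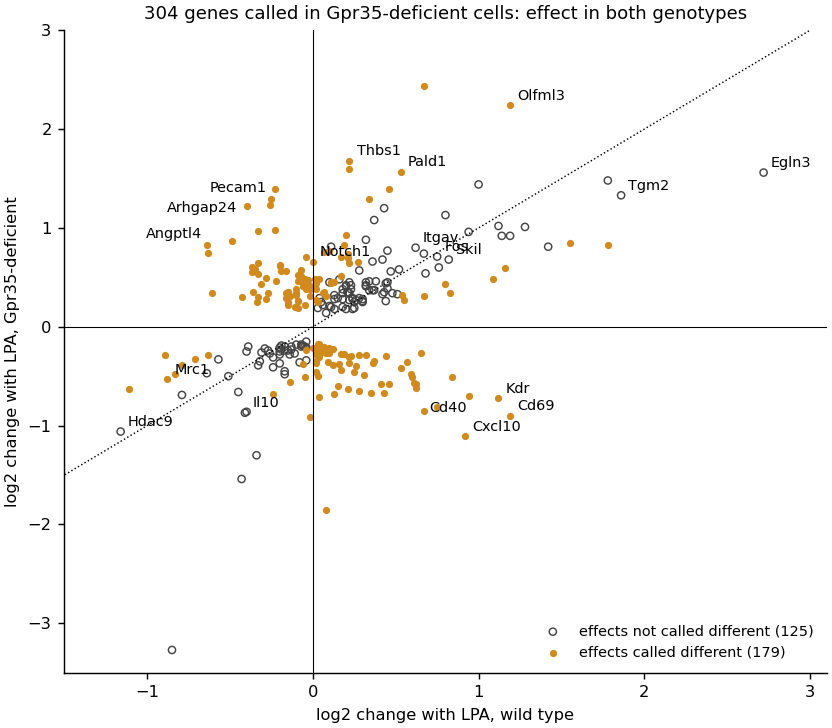
Log2 change with LPA in wild-type cells against that in Gpr35-deficient cells for the 304 genes called in the latter, with the line of equal effect dotted. Filled points are the 179 genes whose effects were called different, open points the 125 that were not; Cxcl10, Cd69, Cd40 and Kdr lie in the lower right quadrant, raised in wild type and lowered in the deficient cells.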

How the data were processed

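Gene counts were deposited by the authors as 1 table for all 24 libraries; the polyA RNA was made into stranded libraries and read as paired 51-base reads, per the labels' protocols, and aligned with STAR 2.5.2a to mm10, per the submitters' processing notes. Which tool counted the reads, on which strand and with which annotation is not given in the sources used here. Positions come from RefSeq GRCm38.p6.

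Counts of 11590 genes were tested with edgeR 4.0.16 (TMM factors, quasi-likelihood F test) with 1 coefficient per group for the 6 groups (18 residual degrees of freedom; common coefficient of variation 9.91%). filterByExpr removed no gene, and 9 genes had no symbol. The difference between genotypes is the interaction contrast. CPM values are scaled by library totals and TMM factors. Named genes were those called with at least 2 CPM on average and no overlap between groups, the 12 largest rises and falls, the 10 smallest adjusted p, up to 4 called members of each of 35 lists (or the 2 smallest p where none was called), Gpr35 and Tnf. The genes, lists and rules were chosen with earlier results of these data known. A gene that the rule and 2 lists picked is not reported here and was left out of their counts. The procedure was tested on simulated counts.

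Deviations of same-numbered untreated and LPA libraries from their group means correlated in the deficient cells with Pearson r of 0.347, 0.772, 0.28 and 0.522. All were over 0.1, so the numbers, which come from the labels, were taken to pair the libraries. Libraries of different numbers gave r from -0.581 to 0.466. Untreated library 1 correlated with LPA library 4 (0.351) about as much as with LPA library 1, so the pairing is an assumption. Chi-square per degree of freedom between 2 libraries of a group lay between 4.13 and 26.7, and no library was a copy of another. Alternatives were DESeq2 1.42.0, other scalings and filters, thinning, a fit of the compared groups, the replicate block, and leaving out libraries.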

Additional observations from a re-analysis of the deposited data

Results flagged for a closer look

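Named genes whose LPA effect differed between the genotypes are listed as the deficient minus the wild-type log2 change, from edgeR's interaction test with an adjusted p below 0.05. Higher in the deficient cells, and not given above or given only in part, were Ctla2a (1.63), Ctla2b (1.21), Xylt1 (1.29), Spsb1 (0.95), Fmnl3 (0.53), Ankrd11 (0.23), Sipa1l2 (0.75), Adcy7 (0.40), Ucp2 (0.45), Ndrg1 (0.40), Mylip (0.33), Per1 (0.47), Cebpa (0.93), Kmo (1.23) and Itgb3 (0.97). The same test gave Olfml3 1.06, Pald1 1.04, Cxcl14 0.93, Arhgap24 1.62, Thbs1 1.45, Tgfbr1 0.39, Mrc1 0.35, Havcr2 0.67, Angptl4 1.47, Mmp19 0.54, Notch1 0.66, S1pr1 0.47, Itgb5 0.94 and Pecam1 1.54.

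Lower in the deficient cells were the inflammatory and interferon genes Cxcl10 (-2.04), Cd69 (-2.09), Tnf (-2.39), Cd40 (-1.64), Tnfsf10 (-1.52), Tnfsf15 (-0.80), Ccl8 (-1.93), Cxcl16 (-0.22), Nfkbiz (-1.18), Ikbke (-0.92), Gbp7 (-0.92), Gbp5 (-1.56), Tlr1 (-0.95), Cd14 (-0.80), Psmb10 (-0.62) and Csf1 (-1.16). Others were Lpar1 (-2.0), Kdr (-1.85), the sterol genes Fdps (-1.66) and Idi1 (-1.83), Herpud1 (-0.80), Chst7 (-0.89), Bmt2 (-0.45), Gas7 (-0.51), Hk2 (-0.36), Gclm (-0.60), Slc11a2 (-0.64), Cdk6 (-0.75), Hdc (-1.24), Pf4 (-0.78) and Tnfrsf11a (-0.39).

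In 9 of 184 groups of 4 libraries 1 library stood apart from its group by Dixon's test; about 1 in 20 groups does so by chance. Untreated library 4 was apart for Tnfsf10 (26.2 CPM) and Kdr (14.6 CPM), untreated library 1 for Angptl4 (23.3 CPM) and untreated library 2 for Per1 (23.0 CPM). LPA library 1 was apart for Cxcl14 (9.11 CPM) and Psmb10 (115.8 CPM), LPA library 2 for S1pr1 (92.4 CPM) and Hdc (0.905 CPM), and LPA library 3 for Itgb5 (249.6 CPM).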

How the results depend on the processing

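Of 304 called genes (181 rises, 123 falls), DESeq2 called 462, with 213 falls. The replicate block called 554 (307 and 247), and with only the compared groups 1386 of the 11590 genes (740 and 646). Leaving out 1 library gave 168 to 310 calls, 106 to 178 rises and 57 to 148 falls. An alternative chosen after seeing the data left out both deficient libraries of a number: without number 3 it called 94 genes (63 rises, 31 falls), without number 4 119 (84 and 35), without number 1 115 rises, and without number 2 76 falls; fewer samples enter these fits. Other scalings, filters and thinning kept the counts within 1.5 times. In the paired fit 89 of the 92 named genes kept their side of the threshold and 3 came to pass; with only the compared groups and no block, 67 did, 20 lost the call and 2 came to pass. None of the 63 called genes among the 92 named changed direction. Cd4 (0.03) turned to -0.03 without number 4 and, without single libraries, to between -0.09 and 0.13 (-0.05, -0.03 and -0.04 among them); Gpr35 (-0.27) turned to 0.09 without number 4 and to between -0.68 and 0.08 without single libraries, 0.02 among them, neither being called. Depth limits genes near 1 CPM, which rest on about 20 counts a library.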

Other observations

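Several gene families, chosen after their values were seen and so without a test of the family, held called members in Gpr35-deficient cells. Over all genes 1.56% rose and 1.06% fell. Of 11 formins, which nucleate and elongate actin filaments, Fmnl3 (0.74), Fhod1 (0.45) and Inf2 (0.46) rose and none fell. Fmnl3 moved from 43.7, 35.4, 36.4 and 37.8 CPM to 67.1, 64.7, 63.6 and 60.5 CPM, with no overlap. Of 5 xylosyltransferases 2 rose, Xylt1 (0.97) and Xylt2 (0.34), the enzymes that start glycosaminoglycan chains on proteoglycans. Xylt1 went from 12.7, 13.2, 10.3 and 12.6 CPM to 23.3, 26.0, 19.6 and 26.4 CPM. Among 15 sulfotransferases Chst3 rose by 1.13 and Chst7 fell by 0.91, both acting on chondroitin sulfate, and Ndst2, an enzyme of heparan sulfate, fell by 0.19 (edgeR adjusted p = 0.04). Chst3 had no overlap between groups, at 1.85 to 2.85 CPM untreated and 4.47 to 5.89 CPM with LPA.

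The pair of prostaglandin E receptors in the table moved apart. Ptger4 fell from 71.5, 79.5, 95.7 and 88.7 CPM to 57.5, 60.3, 60.6 and 66.1 CPM (-0.46 ± 0.08 SE, edgeR adjusted p = 0.0017), and Ptger2 rose from 8.55, 9.09, 7.10 and 7.05 CPM to 9.90, 12.1, 12.5 and 11.2 CPM (0.52 ± 0.14, adjusted p = 0.045). Neither changed in wild-type cells by the test, with -0.09 for Ptger2 and 0.02 for Ptger4. Of 40 tripartite motif genes 3 fell and none rose, where 1.06% of all genes fell. Trim21, an antibody receptor of the cytosol, fell by 0.35 (adjusted p = 0.0075) where wild-type cells raised it by 0.37. Below 2 CPM, the deubiquitinase Usp2 rose by 1.60 (adjusted p = 7.0e-04), with a wild-type change of 0.22 and a difference of 1.38 (adjusted p = 0.0054).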
